A study of Caenorhabditis elegans with 53 samples.

Results

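The comparison described here is the change between the first (L1) and the second (L2) larval stage in RNA from neuronal nuclei of Caenorhabditis elegans. It rests on 9 of the 53 libraries of the series, chosen by their labels: 4 neuronal pull-down libraries from L1 larvae and 5 from L2 larvae, taken from the table of raw counts. Both groups carried the transgene otIs790, labelled UPN INTACT, and the labels give no other allele and no agent for them. The INTACT method tags the nuclear envelope in a chosen cell class, here neurons, so that tagged nuclei can be pulled down (IP) from a preparation of all nuclei. Animals were synchronized at L1 and collected 8 ± 1 hours after plating for L1 and 21 ± 1 hours after plating for L2. Each L1 or L2 replicate pooled about 600000 animals, so a value is an average over the tagged neurons of a very large population. Levels at L4 (n = 6, 40 ± 2 hours after plating) and in adults (n = 7, 53 ± 2 hours) are given for some genes without a test. Those neuronal pull-down replicates pooled about 200000 animals each. Libraries from the whole nuclear preparation (input) of the same strain, 4 at L1 and 3 at L2, are set beside the neuronal ones without a test. The L2 input libraries are numbered 1, 2 and 4. The genes described are mainly the 7974 genes, of 41897 in the table, that the authors kept in their neuronal gene set, of which 6342 had enough counts to be tested.

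Neurons of this animal arise in an embryonic and a postembryonic wave. Several classes of ventral nerve cord motor neurons, which innervate body wall muscle, are added by divisions of P-cell descendants during the first larval stage, while most head sensory neurons are present at hatching. The order of larval events is set by the heterochronic genes, in which the early factors LIN-14 and LIN-28 give way to let-7 family microRNAs and later to the transcription factor LIN-29 and its cofactor MAB-10, and position along the body is specified by Hox genes. In pooled nuclei, more cells of a type and more RNA per cell cannot be told apart.

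The L1 libraries held 8582120 to 18122090 counts and the L2 libraries 14003066 to 24838138. The neuronal gene set took 50.3% ± 2.29 (SD, n = 4) of the counts at L1 and 42.5% ± 8.61 (n = 5) at L2, against 17.7% ± 1.22 (n = 4) and 15% ± 1.58 (n = 3) in input. L2 libraries 3 and 5 had the lowest shares, 31.5% and 35.95%. The 27 pan-neuronal genes, a check of the neuronal label, summed to 16361 to 18611 counts per 1000000 of all counts (all-count CPM) at L1 and 8760 to 19240 at L2, against 3344 to 3984 and 2511 to 3288 in L1 and L2 input. Markers of some other tissues moved with the stage. On the same scale, 244 hypodermis and cuticle genes outside the neuronal set summed to 6665 to 8056 at L1 and 16084 to 34694 at L2, with no overlap, and to 20448 to 23900 and 32014 to 96623 in input. The 21 body wall muscle markers summed to 8042 to 10824 at L1 and 11108 to 21531 at L2, and the 29 intestine markers to 2018 to 2474 and 2345 to 7590, highest in L2 libraries 3 and 5. The L1 and L2 ranges overlapped for the markers of pharyngeal muscle (2119 to 5002 and 4068 to 10506), germline (376 to 437 and 367 to 680.3), glia (397 to 546 and 433 to 520.3), coelomocytes (168 to 269 and 219 to 390), sperm (64 to 85.2 and 54.6 to 92.8) and seam (3.61 to 11 and 1.91 to 29.9), as they did for intestine. None of the body wall muscle or intestine markers was at 0 in every L1 or L2 library, and 6 of the hypodermis and cuticle genes were. Whether replicates were grown separately is not in the labels, so that a p-value reflects only how far these libraries vary, possibly for technical reasons.

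**Figure D1:**
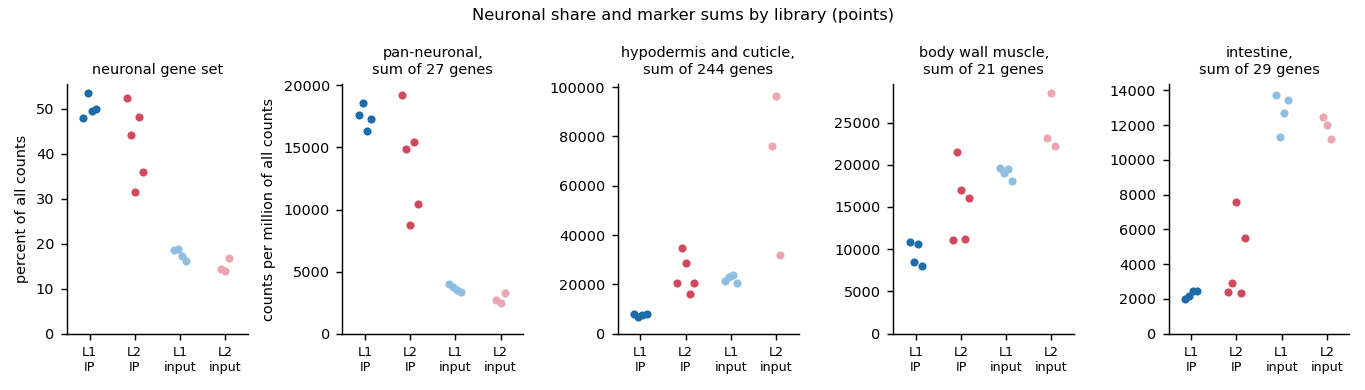
Percent of counts in the neuronal gene set and summed levels of 4 marker lists, in all-count CPM, for each L1 and L2 library from neuronal pull-down (IP) and from input. The neuronal share is 48.1% to 53.5% in L1 IP and 31.5% to 52.4% in L2 IP, and the hypodermis and cuticle sum is higher in all 5 L2 IP libraries than in all 4 L1 IP libraries.

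Levels below are counts per 1000000 adjusted neuronal-set counts (CPM), so they are relative to the neuronal gene set. For the adjustment, each library's neuronal-set sum was multiplied by its TMM (trimmed mean of M-values) factor. These factors were 0.806 to 1.13 in the L1 and L2 libraries. Log2 fold changes are L2 over L1 with a standard error (SE) worked back from the test statistic. A gene was called where its adjusted p (edgeR quasi-likelihood test, Benjamini-Hochberg over all 16770 genes tested) was under 0.05. Of the 6342 neuronal-set genes tested, 207 rose (3.26%) and 78 fell (1.23%), together 4.49%, and 1034 had an unadjusted p under 0.05. Over all 16770 genes, 11.1% rose and 0.513% fell, together 11.6%. The risen neuronal-set genes had a median log2 fold change of 1.00, with 106 under 1 and 20 at 2 or more, and in 194 of them every L2 library lay above every L1 library. The fallen genes had a median of -1.36, and the groups were apart in 69 of them. These genes were called for a difference between the same libraries, so separated groups, here and below, are no further support. The share of separated genes over all genes tested was not counted. Both counts depend on scaling and on single libraries. Scaling by TMM over all genes moved the median log2 fold change of the neuronal set from -0.02 to -0.34. With it, 57 neuronal-set genes rose (0.899%) and 247 fell (3.89%), while over all genes 6.39% rose and 1.68% fell. Of these 304 neuronal-set genes, 135 were also called in the same direction in the scaling used here. Without L1 library 1, 2, 3 or 4, the risen genes numbered 79, 50, 54 and 111 and the fallen genes 26, 7, 9 and 38. Without L2 library 2, 3 or 5, there were 123, 130 and 116 risen and 35, 30 and 28 fallen genes.

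By chromosome, 5.11% of the tested neuronal-set genes on X rose and 0.438% fell, while 2.70% of those on V rose and 2.44% fell. The share that rose was 4.58% on I, 4.08% on III, 1.96% on IV and 1.54% on II. The difference between chromosomes was not tested.

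**Figure D2:**
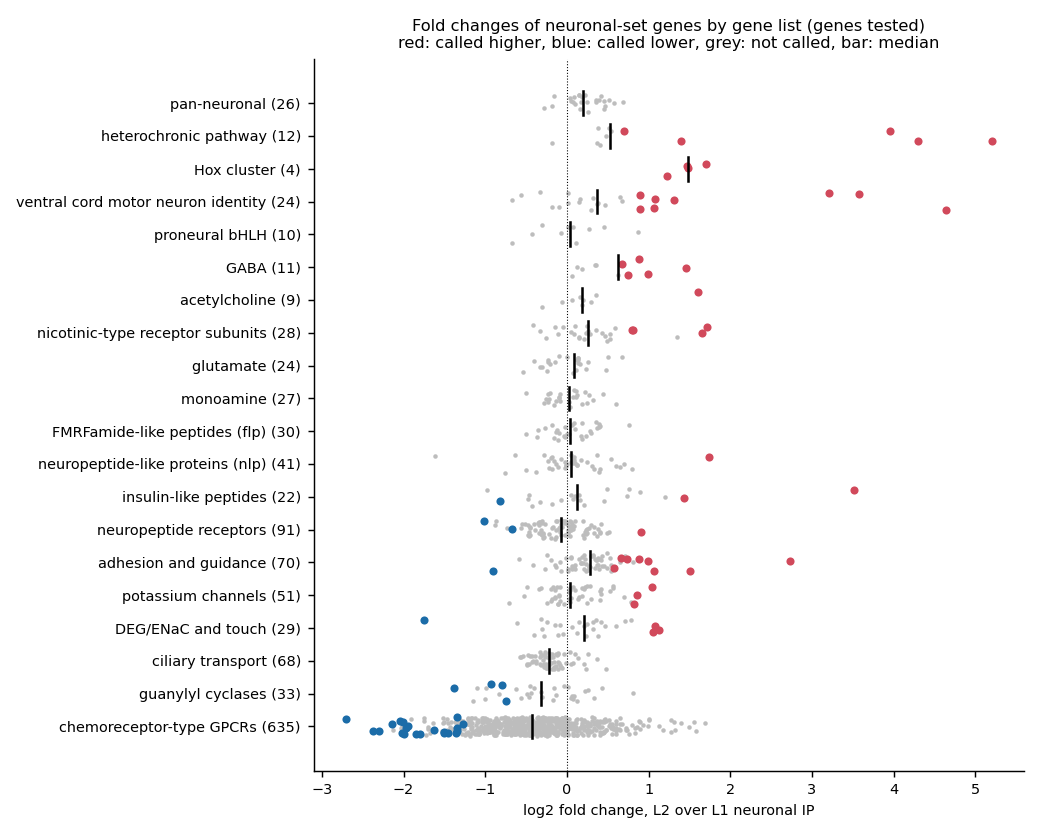
Log2 fold change (L2 over L1 neuronal IP) of each tested neuronal-set gene in a set of gene lists, with the number of genes in brackets, called genes in red (higher) or blue (lower), the others in grey and each list's median as a bar. All 4 Hox genes and 8 of 24 ventral cord motor neuron genes are called higher, where 3.26% of the neuronal set is. The called chemoreceptor and guanylyl cyclase genes shown are called lower.

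Of 25 heterochronic genes tested, in or out of the neuronal set, 9 rose and 1 fell, where 11.1% and 0.513% of all genes did. The neuronal-set members that rose were mab-10, mir-241, let-7, daf-12 and kin-20, those outside it were lin-42, lin-29, hbl-1 and lep-5, and lin-28 fell. With TMM over all genes 8 rose and 1 fell, and with 1 library left out 7 to 13 rose. The median log2 fold change of the list was 0.53, beside 0.38 over all genes tested.

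The early gene lin-28 encodes an RNA-binding protein that blocks the maturation of let-7. Its level was 123, 120.3, 161 and 98.7 CPM in the L1 libraries and 52, 57.7, 61, 45.1 and 76.5 in the L2 libraries. Every L2 library lay below every L1 library, a fall by 1.11 on the log2 scale (SE 0.22, adjusted p = 0.0102) that stayed called whichever library was left out. On the scale of all counts, its pull-down level was 67.2 ± 10.4 all-count CPM at L1 and 22.9 ± 3.11 at L2. Its input level was 69.2 ± 5.93 at L1 and 18.5 ± 7.3 at L2. lin-14, the nuclear factor that specifies L1 fates, was not called: its levels of 759.6, 583, 634 and 916 CPM at L1 and 799, 960.3, 1034, 988 and 867 at L2 overlapped (0.36, SE 0.18, adjusted p = 0.198). lin-41, a target of let-7, missed the threshold at 632 ± 148 and 1009 ± 161 CPM (0.68, SE 0.20, adjusted p = 0.051), although its groups did not overlap.

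The microRNA genes had few counts at L1. mir-241, a let-7 family member, had 0, 7, 2 and 3 raw counts in the L1 libraries and 73, 27, 85, 38 and 263 in the L2 libraries. All L2 libraries were above all L1 libraries in CPM, with L2 library 5 far above the others (5.21, SE 0.96, adjusted p = 0.00752). let-7 itself had 0, 3, 11 and 16 counts at L1 and 99, 61, 102, 13 and 341 at L2. L2 library 4 (1.82 CPM) lay just under L1 library 4 (1.84 CPM), so the groups overlapped (4.29, SE 1.03, adjusted p = 0.0234). Its call held with TMM over all genes (adjusted p = 0.0251) and was lost without L1 library 1, 2 or 3 (adjusted p 0.0578 to 0.0896). lin-4, the microRNA that represses lin-14, was not called at 4.11 ± 3.57 and 3.67 ± 0.638 CPM (adjusted p = 0.862). These are counts over the microRNA genes in nuclear RNA and do not give the amount of mature microRNA.

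Of the later-acting genes, mab-10 encodes the cofactor of LIN-29 and lies on chromosome II, 10530362 to 10533446 (coordinates as the files give them, on a build not given in the sources used here). It measured 8.77, 1.26, 2.21 and 8.29 CPM at L1 and 52.8, 30.01, 92.4, 40.7 and 176 at L2. The lowest L2 library was above the highest L1 library (3.96, SE 0.70, adjusted p = 0.00631), and the mean was 1046 ± 183 (n = 6) at L4 and 245 ± 70.5 (n = 7) in adults. lin-29, the zinc-finger factor of the larval to adult switch, was at 18, 23.8, 16.9 and 38.6 CPM at L1 and 95.9, 87.4, 113, 85.9 and 91 at L2 (1.96, SE 0.28, adjusted p = 0.00202). The nuclear hormone receptor gene daf-12, which links stage progression to growth conditions, went from 222, 380.4, 319.5 and 312 to 838, 814, 1027, 577 and 816 CPM (1.4, SE 0.22, adjusted p = 0.00315). In mab-10, lin-29 and daf-12 the groups did not overlap and the call held with any 1 library left out. hbl-1, a Hunchback-like gene outside the neuronal set, rose from 179 ± 42.3 to 395 ± 70.5 CPM (1.14, SE 0.21, adjusted p = 0.00696).

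lin-42, a Period-like gene whose RNA cycles with the molts, measured 32.7, 37.8, 35 and 115 CPM at L1 and 445, 573, 731, 279 and 2109 at L2 (3.90, SE 0.65, adjusted p = 0.00436). lep-5, a long non-coding RNA gene of the same pathway, rose from 0.53 ± 0.326 to 37 ± 38.6 CPM (6.05, SE 0.88, adjusted p = 0.00237), and its counted segments overlap those of another gene in the files, so that their reads cannot be told apart. Both were highest in L2 library 5, as were mab-10, mir-241 and let-7. In that library the seam marker sum was 29.9 all-count CPM, against 1.91 to 18.2 in the other L2 libraries, and the intestine sum was 5532, against 2345 to 2935 in L2 libraries 1, 2 and 4 and 7590 in library 3. Its hypodermis and cuticle sum, 20758, lay within the range of the other L2 libraries. The part of these tissues in the levels of library 5 was not tested. kin-20, a casein kinase gene of the Doubletime type, rose by 0.70 (SE 0.20, adjusted p = 0.041). It was not called with TMM over all genes (adjusted p = 0.203), nor without any 1 of the L1 libraries or L2 library 2, 3 or 5 (0.0662 to 0.114). Of 12 regulators of the molting cycle, lin-42 and the hypodermal GATA factor gene elt-3 rose (1.30, SE 0.36, adjusted p = 0.0393 for elt-3), neither of them in the neuronal set. Among all genes, 11.1% rose. The count of risen regulators was 8 without L2 library 1, 5 without L2 library 4, 2 without L1 library 4 and 1 without any other library. elt-3 was not called with TMM over all genes (adjusted p = 0.0639). At an unadjusted p under 0.05, 9 of the 12 regulators were higher and 0 lower, and DESeq2 called 9 higher and 0 lower. All 12 had a log2 fold change above 0, with a median of 1.07, beside 0.38 over all genes tested.

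**Figure D3:**
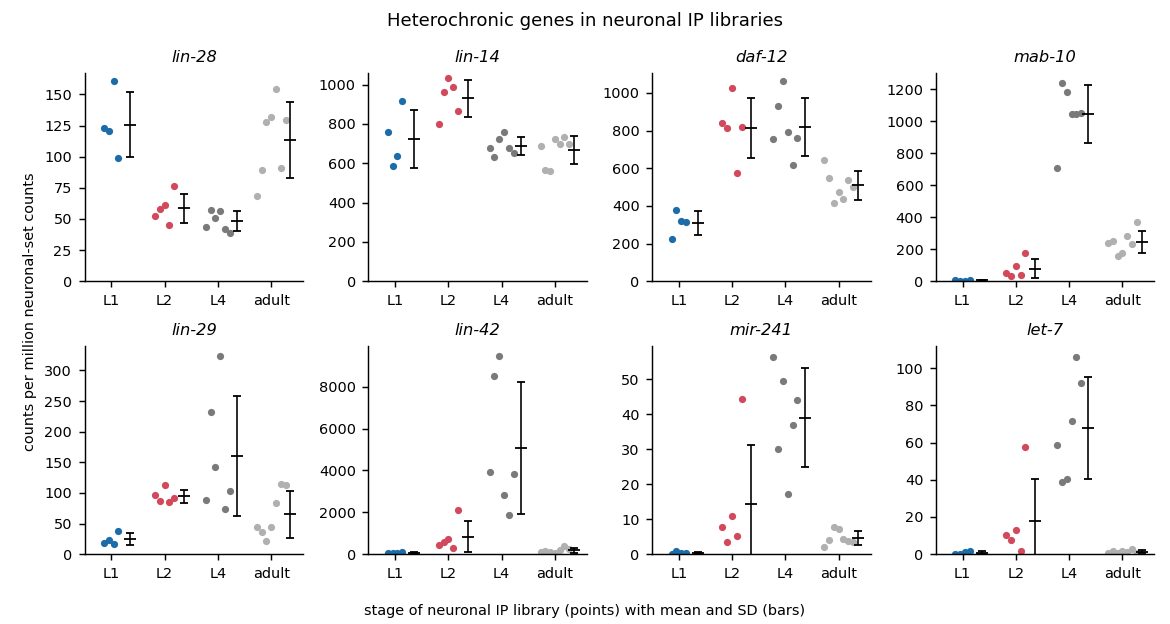
Levels of 8 heterochronic genes in CPM, 1 point per neuronal IP library at L1 (n = 4), L2 (n = 5), L4 (n = 6) and adult (n = 7), with mean and SD beside the points (bars cut at 0). lin-28 is lower in all L2 than in all L1 libraries, lin-14 overlaps between them, and mab-10, lin-42, mir-241 and let-7 are higher at L4 than at L2 on average.

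All 4 Hox genes in the neuronal set rose, where 3.26% of the whole set did. lin-39, which acts in the mid-body and lies on chromosome III, 7529051 to 7534635, was at 27.2, 37.5, 31.4 and 42 CPM at L1 and 110.4, 83.9, 123, 84.8 and 74.3 at L2 (1.46, SE 0.24, adjusted p = 0.00382). mab-5, which acts posterior to lin-39, was at 11.3, 16.9, 16 and 24.6 CPM and then 46.6, 40.6, 57.8, 51.7 and 45.8 (1.49, SE 0.27, adjusted p = 0.00685). ceh-13, the anterior labial-type gene, went from 26.9, 29.6, 29.7 and 40.2 to 91.1, 75.6, 155, 121.5 and 70.8 CPM (1.70, SE 0.28, adjusted p = 0.00419). In these 3 genes the lowest L2 library stood above the highest L1 library, and the calls held with any 1 library left out and with TMM over all genes (adjusted p = 0.0151, 0.0189 and 0.00844). egl-5, the Abdominal-B-type gene, rose from 9.48 ± 2.75 to 22.3 ± 6.55 CPM (1.23, SE 0.33, adjusted p = 0.0346). It was not called with TMM over all genes (adjusted p = 0.0944), nor without any 1 of the L1 libraries or L2 library 2, 3 or 5 (0.0501 to 0.112). nob-1 and php-3, neighbouring posterior genes outside the set, were not called (adjusted p = 0.285 and 0.249). The Hox cofactor gene unc-62, of the Meis type, rose from 434 ± 22 to 645 ± 61.7 CPM (0.57, SE 0.16, adjusted p = 0.0368), a call lost with TMM over all genes (adjusted p = 0.414) and without any 1 of the L1 libraries or L2 library 2, 3 or 5 (0.063 to 0.107).

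The Hox genes were also compared with input on the scale of all counts. Here the L2 pull-down means include libraries 3 and 5, which had no input library of the same number. lin-39 had 26 ± 1.12 all-count CPM in L1 input and 28.8 ± 4.39 in L2 input, against 18.6 ± 4.1 and 38.2 ± 10.8 in the pull-down. mab-5 had 15.7 ± 2.22 and 18.5 ± 6.25 in input, against 9.3 ± 3.22 and 19.5 ± 4.88 in the pull-down. ceh-13 had 26.4 ± 3.38 and 24.4 ± 2.61 in input, against 17.1 ± 3.63 and 41.3 ± 15.6 in the pull-down. These 3 means were lower in the pull-down than in input at L1 and higher at L2, which was not tested. egl-5 stood otherwise, with 4.95 ± 1.42 and 5.75 ± 1.82 in input against 5.1 ± 1.51 and 8.67 ± 1.79 in the pull-down.

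Among 25 genes that mark or specify ventral cord motor neuron classes, 9 rose and 0 fell, where 11.1% and 0.513% of all genes did. Of the 24 in the neuronal set 8 rose, where 3.26% of that set did. In all 9 risen genes the groups were apart. In the whole list 12 had an unadjusted p under 0.05 in the upward direction and 0 in the downward direction, and DESeq2 called 9 higher and 0 lower. With TMM over all genes 3 were called, unc-55, bnc-1 and ceh-12. Without L1 library 1, 2, 3 or 4 the count was 4, 4, 5 and 3. The 24 members in the neuronal set had a median log2 fold change of 0.37, beside -0.02 over the neuronal set, and the whole list one of 0.38, as over all genes tested.

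unc-55 encodes a COUP-TF nuclear hormone receptor that keeps the VD class of GABA motor neurons distinct from the DD class, and lies on chromosome I, 7899038 to 7903329. It was at 10.48, 4.46, 6.62 and 1.15 CPM in the L1 libraries and 47, 41.8, 57.2, 64.8 and 46.8 in the L2 libraries. Every L2 library stood well above every L1 library (3.21, SE 0.49, adjusted p = 0.00306), and levels were 69 ± 11.6 CPM at L4 and 66.1 ± 12 in adults. bnc-1, a Basonuclin-type zinc-finger gene of the VA and VB classes, lies on chromosome V, 12275606 to 12276973 and was at 1.5, 0.229, 0.552 and 0 CPM at L1 and 16.6, 15.2, 8.05, 12.9 and 11.5 at L2, with no overlap (4.64, SE 0.73, adjusted p = 0.00334). Both calls held with any 1 library left out.

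ceh-12, an HB9-type homeobox gene of VB neurons, had 7, 0, 5 and 0 counts at L1 and 61, 43, 50, 48 and 13 at L2 (3.57, SE 0.92, adjusted p = 0.0307). Its groups were apart, but its call was lost without L1 library 2, 3 or 4 or L2 library 3 (adjusted p 0.0525 to 0.092). unc-4, the homeobox gene that represses ceh-12 in VA neurons, was at 14.5, 9.73, 19 and 11.9 CPM and then 24.6, 31.5, 30.3, 48.3 and 35.7 (1.31, SE 0.30, adjusted p = 0.01995). unc-3, the COE-type selector gene of cholinergic motor neurons, rose from 71.5 ± 7.88 to 133 ± 29 CPM (0.89, SE 0.21, adjusted p = 0.0233). unc-30, the PITX-type selector gene of D-type GABA motor neurons, rose from 63.9 ± 12.1 to 119.3 ± 18.6 CPM (0.90, SE 0.21, adjusted p = 0.0207). The groups were apart in each of these 3, but the calls of unc-4, unc-3 and unc-30 were lost with TMM over all genes (adjusted p = 0.0574, 0.158 and 0.17). They were also lost without L1 library 1, 2 or 4 for unc-4 (0.05004 to 0.0868), any 1 L1 library for unc-3 (0.0517 to 0.094) and L1 library 1, 3 or 4 for unc-30 (0.0568 to 0.0626).

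The other risen members were del-1, a degenerin channel gene of VA and VB neurons (43.2 ± 6.94 to 91.4 ± 11.3 CPM, 1.08, SE 0.20, adjusted p = 0.00824), unc-129, a TGF-beta-type ligand gene of DA and DB neurons (153 ± 29.3 to 319.6 ± 89.7 CPM, 1.06, SE 0.24, adjusted p = 0.0187), and irx-1, an Iroquois homeobox gene outside the neuronal set (0.80, SE 0.19, adjusted p = 0.025), whose counted segments overlap another gene. None of these 3 was called with TMM over all genes (adjusted p = 0.0612, 0.124 and 0.147). unc-129 was lost without L1 library 1, 2 or 4 (0.0534 to 0.0782) and irx-1 without any 1 L1 library or L2 library 2 (0.0511 to 0.0868). Members not called included vab-7 (11.3 ± 2.88 and 13.8 ± 2.5 CPM), cfi-1 (188 ± 27.1 and 243 ± 24.3), acr-5 (97.1 ± 14.6 and 77.2 ± 15.6) and oig-1 (42.7 ± 21.1 and 43.3 ± 15), which is known from D-type motor neurons.

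**Figure D4:**
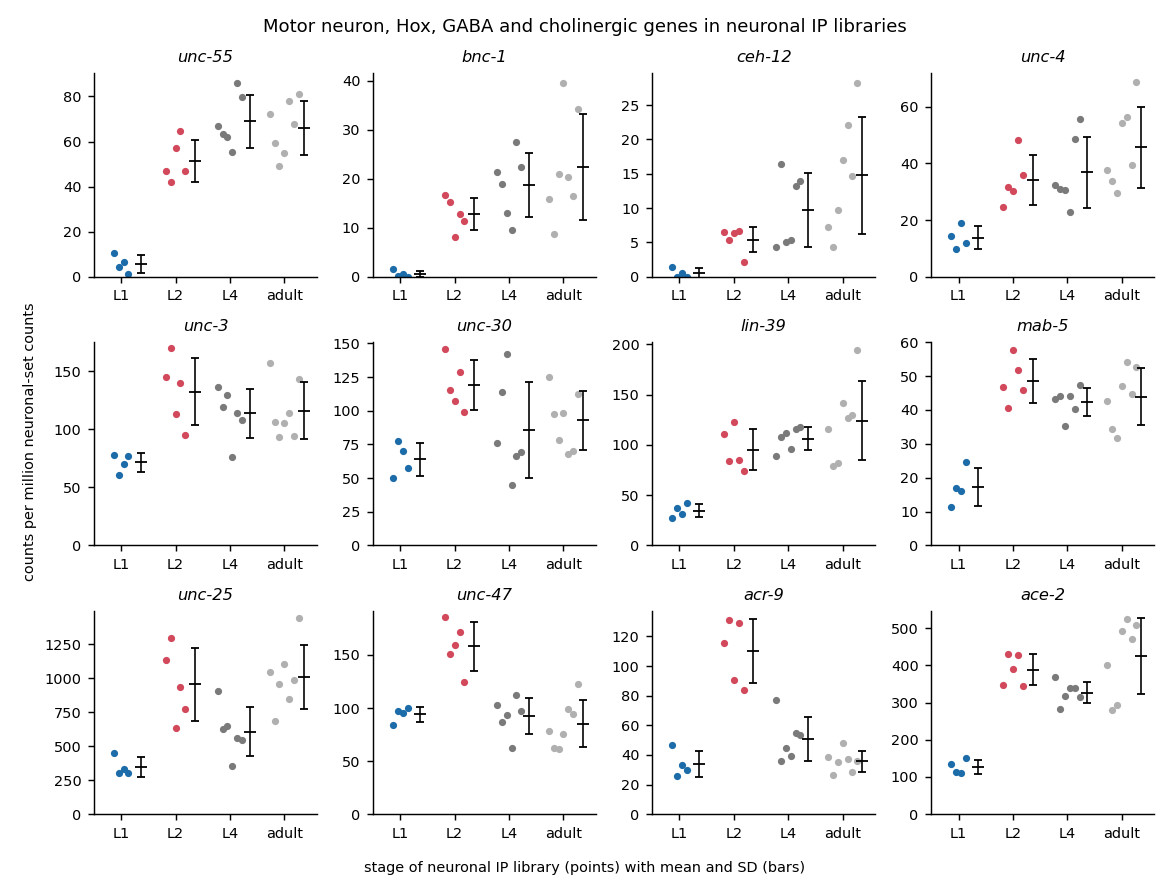
Levels of 12 motor neuron, Hox, GABA and cholinergic genes in CPM, 1 point per neuronal IP library at L1 (n = 4), L2 (n = 5), L4 (n = 6) and adult (n = 7), with mean and SD beside the points (bars cut at 0). In all 12 genes each L2 library is above each L1 library, and unc-55 goes from 1.15 to 10.48 at L1 to 41.8 to 64.8 at L2.

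Genes of GABA signalling rose in 5 of 12 cases and fell in none, with 7 higher and 0 lower at an unadjusted p under 0.05 and 5 and 0 called by DESeq2. Beside this, 11.1% of all genes and 3.26% of the neuronal set rose. With TMM over all genes, unc-25 was the called member, and without L1 library 1, 2, 3 or 4 the count was 1, 2, 1 and 2. unc-25 encodes glutamate decarboxylase, which makes GABA, and measured 449, 302, 336 and 301 CPM at L1 and 1134, 1299, 634, 935 and 770.3 at L2 (1.46, SE 0.24, adjusted p = 0.00429). Its L2 libraries lay above all L1 libraries, lowest in library 3, and the call held with any library left out. unc-46, whose LAMP-like protein sorts the vesicular GABA transporter, rose by 1.00 (SE 0.24, adjusted p = 0.025), and unc-47, that transporter, by 0.75 (SE 0.18, adjusted p = 0.0248). On the receiving side, the receptor gene unc-49 rose from 865 ± 126 to 1377 ± 65.8 CPM (0.67, SE 0.16, adjusted p = 0.0252), and lgc-35, a GABA-gated channel gene, from 39.6 ± 2.62 to 73.2 ± 12.3 (0.89, SE 0.21, adjusted p = 0.0227). These 4 calls were lost without L1 library 1 or 3 and some of them without L1 library 2 or 4 or L2 library 5, with adjusted p of 0.069 to 0.101 for unc-46, 0.0548 to 0.0834 for unc-47, 0.0598 to 0.0864 for unc-49 and 0.0528 to 0.0905 for lgc-35. The receptor genes gbb-1 and gbb-2 and the transporter gene snf-11 were not called (adjusted p = 0.177, 0.844 and 0.732). The summed level of the 11 list members in the neuronal set was 2939 to 3202 CPM at L1 and 4145 to 5037 at L2, with no overlap.

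For acetylcholine, esterase genes rose while the synthesis and transport genes were not called. ace-2, an acetylcholinesterase gene, was at 134, 114, 112 and 151 CPM at L1 and 347, 431, 389, 429 and 346 at L2, with groups far apart (1.6, SE 0.18, adjusted p = 0.00072). ace-1, the esterase gene known from muscle and outside the neuronal set, rose from 26.3 ± 0.627 to 58.9 ± 13.9 CPM (1.16, SE 0.24, adjusted p = 0.0123). Both held with TMM over all genes (adjusted p = 0.00289 and 0.0216) and with any library left out. The choline acetyltransferase gene cha-1 was at 366 ± 80.1 and 449.8 ± 95.1 CPM and the vesicular transporter gene unc-17 at 526 ± 23 and 672 ± 132 (adjusted p = 0.375 and 0.212).

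Nicotinic-type receptor subunit genes rose in 4 of 28 neuronal-set cases, where 3.26% of the whole set rose. acr-9 was at 46.6, 25.9, 33 and 29.7 CPM at L1 and 116, 131, 90.8, 129.4 and 84.1 at L2 (1.71, SE 0.25, adjusted p = 0.00237). acr-14 was at 23.3, 16.1, 15.7 and 26.1 CPM and then 68.6, 60.02, 59.5, 83.5 and 48 (1.66, SE 0.26, adjusted p = 0.00359). Both were apart between the groups, held with any library left out and with TMM over all genes (adjusted p = 0.00976 and 0.0149), and each shares counted bases with another gene in the files. In later stages acr-9 was at 50.8 ± 14.8 CPM at L4 and 35.8 ± 7.1 in adults. lev-1 and unc-29, subunits of the levamisole receptor of muscle, rose by 0.79 (SE 0.19, adjusted p = 0.0235) and 0.81 (SE 0.20, adjusted p = 0.0278). Both were lost with TMM over all genes (adjusted p = 0.17 and 0.157), lev-1 without L1 library 2, 3 or 4 (0.0613 to 0.0997) and unc-29 without any 1 L1 library or L2 library 2 or 3 (0.0533 to 0.108). The body wall muscle sum was higher at L2, as given above, and their part in this was not tested.

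Among adhesion and guidance genes of the neuronal set, 8 of 70 rose and 1, lron-4, fell, where 3.26% and 1.23% of the whole set did. unc-5, the netrin receptor gene for dorsal axon guidance, was at 144, 169, 166 and 193 CPM at L1 and 343, 371, 307, 357 and 290.1 at L2, with no overlap and a call that held with any library left out (0.99, SE 0.17, adjusted p = 0.00526), though not with TMM over all genes (adjusted p = 0.0724). zig-2, a secreted immunoglobulin-domain gene, was at 0.855, 2.86, 2.32 and 0.806 CPM at L1 and 6.92, 7.72, 9.33, 14.5 and 20.1 at L2 (2.73, SE 0.53, adjusted p = 0.00927). dma-1, a receptor gene of dendrite branching in PVD, a sensory neuron born after hatching, rose from 87.3 ± 14.2 to 161 ± 27 CPM (0.88, SE 0.20, adjusted p = 0.0199). It was lost with TMM over all genes (adjusted p = 0.163) and without L1 library 1, 2 or 3 (0.0565 to 0.0728). Without L1 library 1, 2, 3 or 4 the risen members numbered 2, 2, 3 and 4 and 0 fell, and with TMM over all genes 2 rose and 2 fell.

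Of 29 degenerin channel and touch neuron genes in the set, 3 rose and 1 fell, where 3.26% and 1.23% of the whole set did. The tubulin genes of touch neurons, mec-7 and mec-12, rose with del-1, by 1.13 (SE 0.31, adjusted p = 0.0369) and 1.05 (SE 0.27, adjusted p = 0.0295). mec-7 was at 275, 271, 430.5 and 471 CPM at L1 and 904, 1332, 486, 644 and 602 at L2. On this TMM-adjusted scale its groups were apart by a small margin. Before the adjustment L1 library 4 (4087 of 7782359 neuronal-set counts) stood above L2 library 3 (3803 of 7833501), so the groups overlapped. Neither was called with TMM over all genes (adjusted p = 0.144 and 0.158), and both were lost without any 1 L1 library (0.054 to 0.12 for mec-7, which was also lost without L2 library 2, and 0.0511 to 0.0966 for mec-12). egas-3, a degenerin-family gene, fell with overlapping groups (35.1, 31.8, 66.7 and 11.1 and 15.5, 13.6, 9.58, 5.87 and 8.93 CPM, -1.75, SE 0.45, adjusted p = 0.0315), and was lost without L1 library 1, 2 or 3 or L2 library 3 or 5 (0.0614 to 0.116). Of 51 potassium channel genes in the set, the TWK channel genes twk-7, twk-30 and twk-46 rose, twk-7 from 167 ± 24.7 to 344 ± 56.2 CPM (1.04, SE 0.19, adjusted p = 0.00657). Beside these 3 of 51, 3.26% of the neuronal set rose. With TMM over all genes 0 of the 51 were called, while DESeq2 called 6 higher, and 8 higher and 1 lower had an unadjusted p under 0.05. twk-30 was lost without any 1 L1 library or L2 library 2 (adjusted p 0.0547 to 0.114), and twk-46 without these or L2 library 5 (0.0641 to 0.117), so that 1 member was called without any 1 of the L1 libraries or L2 library 2.

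Of 30 FMRFamide-like (flp) peptide genes, 0 were called by edgeR or DESeq2, 0 had an unadjusted p under 0.05, and 1 fell with TMM over all genes. Of 41 nlp peptide genes in the set, nlp-45 rose from 2.57, 9.39, 6.07 and 13.2 CPM to 40.8, 27.6, 25.3, 24 and 13.6 (1.74, SE 0.46, adjusted p = 0.0329), with groups that nearly touched. In this list 0 fell, with 2 higher and 3 lower at an unadjusted p under 0.05, while 0 rose and 3 fell with TMM over all genes and 1 and 3 with DESeq2. The whole neuronal set had 3.26% risen and 1.23% fallen genes. nlp-45 was lost with TMM over all genes (adjusted p = 0.083) and without L1 library 1, 2 or 3 or L2 library 2 or 3 (0.0523 to 0.0984). Of the insulin-like genes, ins-9 had 5, 9, 7 and 10 raw counts at L1 and 75, 35, 93, 145 and 80 at L2, with every L2 library above every L1 library in CPM and a call that held with any library left out (3.51, SE 0.51, adjusted p = 0.00237). It was at 63.9 ± 24.6 CPM at L4. ins-10 rose by 1.43 (SE 0.42, adjusted p = 0.0452) and lost its call without any 1 of the 9 libraries (0.0504 to 0.144). ins-26 fell from 131 ± 30.5 to 74.6 ± 14.9 CPM (-0.82, SE 0.22, adjusted p = 0.0352), a call lost without any 1 L1 library or L2 library 2, 3 or 5 (0.0557 to 0.129).

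Of the 78 neuronal-set genes that fell, 21 were chemoreceptor-type GPCR genes. They came from 635 tested of 906 in the set, of which 0 rose, although 12 were higher and 96 lower at an unadjusted p under 0.05 and DESeq2 called 5 higher and 66 lower. Of all 6342 neuronal-set genes tested, 3.26% rose and 1.23% fell. The list had a median log2 fold change of -0.43, and the neuronal set one of -0.02. The summed level of all 906 genes, tested or not, was 4520 to 5311 CPM in the L1 libraries and 3344 to 4057 in the L2 libraries, with no overlap. With TMM over all genes 55 fell, the 21 among them, where 3.89% of the neuronal set fell. Without L1 library 1, 2, 3 or 4 the count was 9, 2, 6 and 9, and without L2 library 2, 3 or 5 it was 9, 10 and 9. The log2 fold changes of the 21 ran from -2.71 to -1.28, and in 19 the groups were apart. Over the whole list of 655 tested, 4 genes rose, all outside the set. Among them was str-176 (2.57, SE 0.40, adjusted p = 0.00328).

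srg-14 was at 21.8, 24.5, 14.9 and 19.9 CPM at L1 and 4.47, 4.36, 4.73, 9.92 and 4.72 at L2 (-1.84, SE 0.35, adjusted p = 0.00795). srg-66 went from 9.15 ± 1.95 to 2.07 ± 0.748 CPM (-2.14, SE 0.41, adjusted p = 0.00813). Both were apart between stages and held with any library left out, and at L4 they stood at 1.28 ± 0.675 and 0.57 ± 0.3996 CPM. srd-70 was at 17.3, 30.8, 22.1 and 15.9 CPM and then 7.77, 4.61, 6.01, 1.96 and 10.6 (-1.80, SE 0.44, adjusted p = 0.0246), and its call was lost without L1 library 2 or 3 (adjusted p 0.0698 to 0.094). sri-73 fell by 1.34 (SE 0.28, adjusted p = 0.0139), lost without L1 library 2 (adjusted p = 0.0637). str-220 fell by 2.38 (SE 0.53, adjusted p = 0.0169) on few counts per library, lost without L1 library 2 or 3 (0.0544 to 0.0942).

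Guanylyl cyclase genes, receptor-type and soluble, several of which act in sensory neurons, fell in 4 of 33 neuronal-set cases and rose in none, with 11 lower and 0 higher at an unadjusted p under 0.05 and 6 and 0 called by DESeq2. Across the neuronal set 1.23% fell and 3.26% rose. gcy-7, a marker of the left ASE neuron, lies on chromosome V, 8387336 to 8392304 and was at 119.3, 203, 165 and 109.6 CPM at L1 and 77.3, 68.1, 25.9, 30.5 and 85.3 at L2 (-1.38, SE 0.36, adjusted p = 0.0324). gcy-15 was at 365, 439, 428 and 272 CPM and then 209, 158, 194, 178 and 247 (-0.93, SE 0.20, adjusted p = 0.015). The other members were gcy-27 (-0.79, SE 0.22, adjusted p = 0.0412) and gcy-21 (-0.75, SE 0.22, adjusted p = 0.0442), of which gcy-21 alone had overlapping groups. All 4 were called with TMM over all genes, where 7 of the list and 3.89% of the neuronal set fell. Without L1 library 1, 2 or 3 the list held 1, 0 and 0 called genes, and without L2 library 2, 3 or 5 it held 2 each. gcy-7 was lost without any 1 L1 library (adjusted p 0.0503 to 0.11) and gcy-15 without L1 library 2 or 3 (0.058 to 0.0638). gcy-27 was lost without any 1 library other than L2 library 1 (0.0556 to 0.112), and gcy-21 without L1 library 1, 2 or 3 or L2 library 2, 3 or 5 (0.0754 to 0.139).

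gpa-4, a G-protein alpha subunit gene of the sensory neuron ASI, was at 35.9, 53.8, 33.3 and 49.97 CPM at L1 and 23, 20.05, 16.6, 6.43 and 16 at L2, with no overlap (-1.4, SE 0.34, adjusted p = 0.0259). It was lost without L1 library 2, 3 or 4 or L2 library 5 (adjusted p 0.0537 to 0.0901). ocr-3, a TRPV channel gene, fell by 1.46 (SE 0.38, adjusted p = 0.0315) with overlapping groups, since L1 library 1 (25.7 CPM) was below L2 library 1 (29.5). It was lost without L1 library 2 or 3 or L2 library 2, 3 or 5 (0.0533 to 0.11). Of 68 ciliary transport genes in the set, 0 were called by edgeR (median -0.22), where 4.49% of the neuronal set was. At an unadjusted p under 0.05, 1 was higher and 7 were lower. With TMM over all genes 5 fell, where 3.89% of the neuronal set did, and 3 fell with DESeq2.

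**Figure D5:**
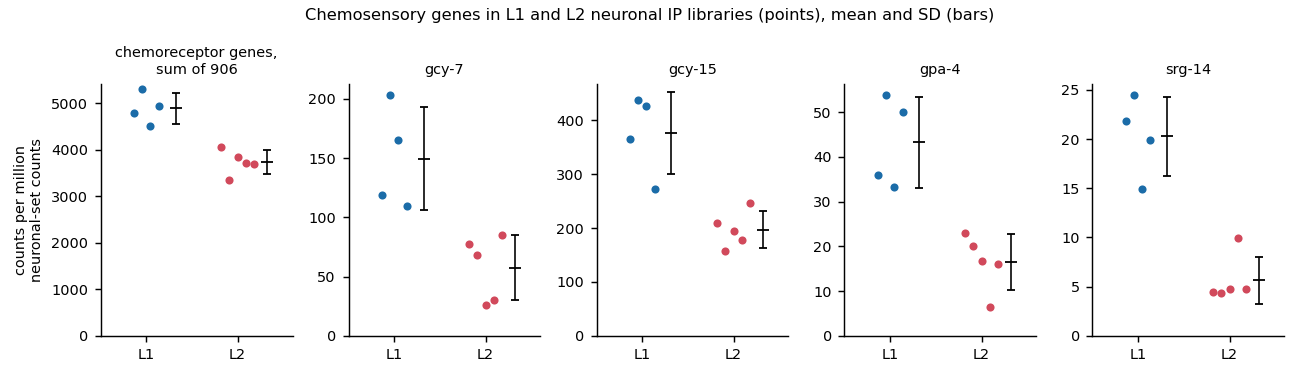
Summed level of 906 chemoreceptor genes and levels of gcy-7, gcy-15, gpa-4 and srg-14 in CPM, 1 point per L1 (n = 4) or L2 (n = 5) neuronal IP library, with mean and SD beside the points. In all 5 panels each L2 library is below each L1 library, and the chemoreceptor sum goes from 4520 to 5311 at L1 to 3344 to 4057 at L2.

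Among transcription factor genes, the homeobox gene ceh-57 fell from 94.1 ± 18.5 to 50.1 ± 3.48 CPM (-0.91, SE 0.20, adjusted p = 0.0162), as did the nuclear receptor genes nhr-124 (-0.85, SE 0.22, adjusted p = 0.0319) and nhr-196 (-1.57, SE 0.43, adjusted p = 0.0363). ceh-57 was lost without L1 library 2 or 3 (adjusted p 0.0557 to 0.0776). The nuclear receptor genes were lost without any 1 L1 library or L2 library 2, 3 or 5 (0.054 to 0.0971 and 0.0683 to 0.0963). Of 91 neuropeptide receptor genes, 1 rose and 2 fell, where 3.26% and 1.23% of the neuronal set did. With TMM over all genes 0 rose and 6 fell, and with DESeq2 1 and 6. dmsr-9 (-1.01, SE 0.29, adjusted p = 0.0433) and frpr-9 (-0.68, SE 0.20, adjusted p = 0.0453) fell and gnrr-1 (0.91, SE 0.25, adjusted p = 0.0386) rose. Each was lost without any 1 L1 library or L2 library 2, 3 or 4, and the fallen genes also without L2 library 5 (adjusted p 0.0516 to 0.109, 0.0509 to 0.123 and 0.0517 to 0.131). gnrr-1 was not called with TMM over all genes (adjusted p = 0.201).

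Other neuronal-set genes that rose in both scalings had varied roles. tra-1 encodes the terminal zinc-finger regulator of sexual fate and lies on chromosome III, 11171993 to 11194961. It was at 174, 316, 318 and 295 CPM at L1 and 1039, 1174, 1147, 964 and 1243 at L2, a wide separation (2.01, SE 0.21, adjusted p = 0.00072) that held with any library left out. On the scale of all counts, its pull-down level was 148 ± 35.7 all-count CPM at L1 and 441.5 ± 56.8 at L2. Its input level was 91.5 ± 11.2 at L1 and 177 ± 46.8 at L2. lec-2, a galectin gene, rose from 462 ± 142 to 1466 ± 562 CPM (1.67, SE 0.30, adjusted p = 0.00631), and arrd-22, of the arrestin-domain family, from 21.8 ± 9.42 to 118 ± 34.6 CPM (2.44, SE 0.33, adjusted p = 0.00181). pgp-7, a P-glycoprotein transporter gene, was at 20.1, 13.4, 17.4 and 20.1 CPM and then 51.4, 63.5, 256, 61.6 and 90.6 (2.56, SE 0.48, adjusted p = 0.00775). In all-count CPM, pgp-7 stood at 92.3 ± 55.4 in L2 input and 38.3 ± 24.1 in the L2 pull-down. ubh-1, a ubiquitin hydrolase gene, rose by 2.30 (SE 0.34, adjusted p = 0.00259), nnt-1, a transhydrogenase gene, by 2.14 (SE 0.49, adjusted p = 0.0193), and abhd-14 by 1.70 (SE 0.38, adjusted p = 0.019). nnt-1 was lost without L1 library 2, 3 or 4 (adjusted p 0.0577 to 0.0771) and abhd-14 without L1 library 1, 2 or 3 (0.0575 to 0.0753).

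Genes of other tissues, most of them outside the neuronal set, also rose. Of 218 hypodermis and cuticle genes tested, 98 rose and 0 fell (median 2.04), and 55 of the 98 were called with any library left out. Of body wall muscle markers 13 of 21 rose, of pharyngeal muscle 5 of 10, of intestine 8 of 28, of germline 9 of 38 and of glia 2 of 17, where 11.1% of all genes rose. With TMM over all genes 81 hypodermis and cuticle genes, 7 body wall muscle, 5 pharyngeal muscle, 5 intestine, 6 germline and 1 glia markers rose. With all 22 control libraries and TMM over all genes these counts were 48, 0, 0, 0, 6 and 1. Without L1 library 2 the first 5 counts, in the scaling of the neuronal set, were 57, 2, 2, 1 and 1, and without L2 library 4 they were 124, 19, 6, 17 and 10. Of seam, coelomocyte and sperm markers 0 were called by edgeR, with 2, 3 and 2 higher at an unadjusted p under 0.05 and 1, 3 and 2 called higher by DESeq2. nlp-24, a peptide gene outside the set, was at 25.4, 41.9, 43.4 and 48.9 CPM and then 259, 365, 841, 271 and 512 (3.49, SE 0.39, adjusted p = 0.00072), and at 671 ± 197 all-count CPM in L2 input against 167 ± 58.5 in the pull-down. ins-33, an insulin-like gene outside the set, rose from 1.73 ± 1.27 to 28 ± 7.16 CPM (4.03, SE 0.57, adjusted p = 0.00208). The part of other tissues' RNA in the changes of neuronal-set genes was not tested. For the motor neuron genes, L2 levels in all-count CPM were 5.3 ± 2.13 in pull-down and 4.11 ± 0.709 in input for bnc-1, 21 ± 7.36 and 6.79 ± 3.996 for unc-55, and 391 ± 148 and 114 ± 13.5 for unc-25.

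Several lists held no called gene in the edgeR test, which called 11.6% of all genes tested and 4.49% of the neuronal set. Of 27 pan-neuronal genes 0 were called (median 0.22), with log2 fold changes from -0.28 for egl-3 to 0.79 for tbb-1, 6 higher at an unadjusted p under 0.05 and 4 called higher by DESeq2. Of 16 proneural bHLH genes 0 were called (median 0.04), with 1 higher at an unadjusted p under 0.05 and 1 by DESeq2. Of 43 cell division genes 0 were called (median 0.12), with 1 higher at an unadjusted p under 0.05 and 0 by DESeq2. The division genes summed to 764 to 1290 all-count CPM in the L1 libraries and 527 to 980 in the L2 libraries, with overlap. Among 24 glutamate and 27 monoamine genes of the neuronal set 0 were called in either scaling, with 2 higher and 2 lower glutamate genes and 2 higher and 1 lower monoamine genes at an unadjusted p under 0.05, and 0 and 2 called by DESeq2. A call missed at this number of libraries does not show that a level was equal.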

How the data were processed

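Nuclear RNA from pulled-down neuronal nuclei was compared between L1 and L2 larvae. Reads were aligned with Subread and assigned to genes with featureCounts, per the submitters' processing notes, and the authors deposited raw counts per gene. Versions, genome build and strandedness: not given in the sources used here. Reads of antisense or overlapping genes therefore cannot be told apart. The authors also deposited a size-adjusted table, whose values are a score: counts of the neuronal gene set rescaled to a common library sum and rounded. It was used only to define the neuronal gene set.

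From the counts, genes passing edgeR's filterByExpr (minimum count 10) were fitted with edgeR 4.0.16 in R 4.3.3 by the quasi-likelihood test, on the 4 L1 and 5 L2 pull-down libraries, without covariates. Library sizes were the neuronal-set sums times TMM factors computed on that set. The CPM levels use the same adjusted sizes. P-values were adjusted by Benjamini-Hochberg over 16770 genes. The steps were tested on simulated counts. Standard errors of the log2 fold change were worked back from the test. Each is the absolute log2 fold change divided by the square root of the quasi-likelihood F statistic. SDs are over libraries.

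Genes were named from the called, non-overlapping neuronal-set genes that were also called with all 22 control pull-down libraries and TMM over all genes and had a mean of at least 20 CPM in the higher group. Of these 18 risen and 5 fallen genes, the 12 of largest rise and all fallen ones were named. Further named genes were all called heterochronic, motor neuron, Hox and molting genes, and up to 4 called genes of smallest p per other list. unc-49, unc-62, lron-4 and list members that were not called were named after their values were seen. The members, lists, scaling and fit were chosen with earlier results of these data known. Alternatives were TMM over all genes, RLE scaling, all 22 libraries, DESeq2 1.42.0, no filter, a replicate block, each library left out, and, chosen after seeing the data, L2 libraries 3 and 5 left out together.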

Additional observations from a re-analysis of the deposited data

Results flagged for a closer look

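In 15 cases a single library lay far from the others of its group by Dixon's criterion, applied to 196 groups of 4 or 5 libraries. Chance alone sets apart about 1 in 20 groups. Values are CPM of the neuronal set, as above.

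L2 library 5 stood high for 3 genes of larval timing. let-7 was at 57.5 CPM there and at 1.82 to 13 in the other L2 libraries, mir-241 at 44.3 against 3.36 to 10.9, and lin-42 at 2109 against 279 to 731. L1 library 4 was also high for lin-42, at 115 against 32.7 to 37.8 in the other L1 libraries, for hbl-1, at 243 against 157 to 160.0, and for gnrr-1, at 51.0 against 35.8 to 38.1.

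L2 library 3, which had the lowest neuronal share, was high for pgp-7 (256 CPM against 51.4 to 90.6), elt-3 (174 against 46.7 to 83.4), cat-4 (142 against 36.2 to 56.0) and hbl-1 (516 against 332 to 384). Other single values were nnt-1 in L2 library 2 (133 against 33.4 to 59.5), srg-14 in L2 library 4 (9.92 against 4.36 to 4.73), tra-1 in L1 library 1 (174 against 295 to 318), lgc-35 in L1 library 2 (35.7 against 40.5 to 41.5) and glc-1 in L1 library 3 (1.55 against 4.26 to 4.49). cat-4 makes the cofactor of monoamine synthesis and glc-1 encodes a glutamate-gated chloride channel subunit.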

How the results depend on the processing

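The counts of called genes changed with the fit, and the cause was not tested. Beside 207 risen and 78 fallen neuronal-set genes and 1949 called in all, TMM over all genes gave 57, 247 and 1353, and RLE over the neuronal set 199, 80 and 1903. Fitting all 22 control pull-down libraries gave 84, 17 and 454, and the same with TMM over all genes gave 36, 54 and 571. DESeq2 gave 413, 234 and 3652, and no filter on low counts 169, 56 and 2398. Leaving out 1 library gave 50 to 259 risen, 7 to 102 fallen and 531 to 3119 called in all. Without L2 libraries 3 and 5 together, the counts were 128, 36 and 817. The replicate block gave 52, 10 and 774, and 61 of its 62 neuronal-set calls were among those above. Deviations of same-numbered libraries from their group means correlated at -0.233, 0.0277, -0.192 and 0.161, and those of other pairs at -0.299 to 0.329. These values cannot show whether same-numbered libraries were handled together. All 98 named genes were called in the fit used here, and these settings reuse its libraries, so a kept sign was nearly fixed beforehand. None of the 98 changed sign under any of these settings. Their call was kept by 98 with DESeq2 and RLE scaling, 90 with no filter, 68 with TMM over all genes, 52 with all 22 libraries, 50 with both together, 50 with the block, 70 without L2 libraries 3 and 5, and 44 to 96 with 1 library left out. The call of 43 held in all 9 of these last fits. Part of the 50 with both together was fixed too, since the first naming rule required a call in that fit. Low counts limit mir-241, let-7, bnc-1 and ceh-12 at L1.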

Other observations

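These gene groups were looked at after values were seen, except for the lists of the last paragraph, and get no test of the group. Of 12 Wnt pathway genes tested in the neuronal set, 5 rose and 0 fell (median 0.52), where 3.26% and 1.23% of the whole set did. mig-1, a Frizzled receptor gene, rose from 125 ± 10.9 CPM to 256 ± 19.6 (1.04, SE 0.16, adjusted p = 0.00332). Its groups were apart, and it was called with any library left out and with TMM over all genes (adjusted p = 0.038). The others were lin-17, another Frizzled gene (0.72, SE 0.20, adjusted p = 0.0407), and the beta-catenin gene bar-1 (0.95, SE 0.26, adjusted p = 0.0391). The Axin gene pry-1 (0.78, SE 0.20, adjusted p = 0.0299) and the kinase gene gsk-3 (0.60, SE 0.17, adjusted p = 0.0437) also rose. None of these 4 was called with TMM over all genes. Of the 9 fits with 1 library left out, lin-17, bar-1 and pry-1 were called in 3 and gsk-3 in 2.

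Of 35 irld genes, which encode proteins related to the insulin receptor's ligand-binding domain, 4 fell and 0 rose, and 7 fell with TMM over all genes. irld-38 went from 13 ± 2.77 to 4.03 ± 0.85 CPM (-1.68, SE 0.33, adjusted p = 0.00997). It was called in all 9 fits with 1 library left out, and the other fallen irld genes in 1 to 5 of them. Of 30 F-box genes of the fbxa, fbxb and fbxc families, 4 fell and 0 rose, and 6 fell with TMM over all genes. The 4 were called in 1 to 3 of the 9 fits with 1 library left out. Beside both groups, 1.23% of the neuronal set fell, and 3.89% with TMM over all genes. daf-7, the TGF-beta ligand gene of ASI neurons, fell from 819 ± 79.4 to 495 ± 71.4 CPM (-0.73, SE 0.17, adjusted p = 0.0221), with no overlap, as did gpa-4 and ins-26 described above. daf-7 was called in 6 of the 9 fits with 1 library left out.

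Among other lists, 9 of 64 homeobox genes of the neuronal set rose and 1 fell (4 and 2 with TMM over all genes), and 2 of 92 nuclear hormone receptor genes rose and 2 fell (2 and 8), where 3.26% and 1.23% of the neuronal set did (0.899% and 3.89%). Of 26 calcium and cation channel genes 0 rose and 1, ocr-3, fell, where 1 was higher and 2 lower at an unadjusted p under 0.05 and DESeq2 called 0 and 1. Of 7 innexin genes in the set edgeR called 0, with 1 higher and 1 lower at an unadjusted p under 0.05 and 1 called lower by DESeq2. Of 76 ribosomal protein genes, 75 of them outside the set, 0 rose and 1 fell (median 0.64), with 5 higher and 1 lower at an unadjusted p under 0.05 and 1 and 1 called by DESeq2. Of 34 histone genes edgeR called 0 (median 0.67), with 9 higher at an unadjusted p under 0.05 and 6 called higher by DESeq2. Beside the ribosomal and histone lists, 11.1% of all genes tested rose and 0.513% fell.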
